A study of Rattus norvegicus with 8 samples.

Results

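The presynaptic release machinery was followed here through 8 rat genes: the SNARE genes Stx1a, Snap25 and Vamp2, the calcium sensor genes Syt1 and Doc2a, the vesicle glycoprotein gene Sv2a, and the complexin genes Cplx1 and Cplx2. They were picked by their NCBI GeneID for their known roles in transmitter release, not by a rule on their values, and make up 8 of the 22601 genes listed in each library. Earlier results of these data were known at that choice, and the study had already reported Stx1a and Doc2a as changed. All 8 were among the 15593 genes tested, those with a mean of at least 0.1 FPKM (read fragments counted relative to transcript length and to the library's mapped total). Hippocampal RNA was sequenced from wild-type Wistar rats, 3 in the Con. group, 3 in the PTZ group and 2 in the Q808 group, with 1 library per rat. Con. rats received saline and later the solvent of Q808. PTZ rats were kindled with repeated sub-convulsive injections of pentylenetetrazole (PTZ), a blocker of GABA-A receptors, ending with a larger dose, and then received the same solvent. Q808 rats were kindled in the same way and then received Q808, an anticonvulsant candidate, by mouth each day. Rats of both kindled groups got 1 more sub-convulsive PTZ injection shortly before the tissue was taken, so the comparisons with Con. cover kindling and that injection together.

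At a nerve terminal, syntaxin 1 and SNAP-25 on the plasma membrane zip together with synaptobrevin (VAMP2) on the vesicle, and this SNARE complex pulls the membranes into contact. Complexins hold the part-assembled complex in a primed state, and calcium binding to synaptotagmin 1 triggers fusion. Doc2 proteins are calcium sensors of higher affinity linked to spontaneous and asynchronous release, and SV2A is the vesicle protein to which the antiseizure drug levetiracetam binds.

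The 8 libraries differed in tissue composition as well as in treatment. In Con.-3, PTZ-3 and Q808-1, that is, 1 library of each group, 8 striatum markers summed to between 1041 and 2406 FPKM, against 73.4 to 114 in the other 5 libraries. The same 3 libraries held 10.7 to 15.5 FPKM of 6 dentate granule cell markers against 74.7 to 125 elsewhere. Their 4 CA pyramidal cell markers summed to 25.1 to 111 FPKM against 187 to 236, and their 8 oligodendrocyte markers to 6963 to 13758 FPKM against 2681 to 4463. The labelled tissue, hippocampus, was thus weakly marked in them, and for each of the 8 genes values are also given within the 5 libraries low in striatum markers and within the 3 high ones, where each group has 1 library. Those 5 libraries were not alike in composition either. Their choroid plexus markers, 6 genes, summed to 2534 and 2510 FPKM in Con., 409 and 277 in PTZ and 6437 in Q808. In the 3 high ones these sums were 91.8 FPKM in Con., 492 in PTZ and 163 in Q808. The part of choroid plexus content in the results was not tested. Of the marker genes in all these sums Tdo2 was listed at 0 in 5 libraries, Lct in 2, and Fibcd1 and Spink8 in 1 each. Depth relative to Con.-1, read from the steps of the lowest values, lay between 0.854 and 1.19. In bulk tissue, fewer cells of a type cannot be told apart from less RNA per cell.

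Per length of transcript, the genes covered a wide range of levels. Snap25 was the most abundant at 902 ± 162 FPKM in Con. (mean ± SD, n = 3), followed by Syt1 at 323 ± 70.6, Vamp2 at 313 ± 40.2, Cplx2 at 242 ± 53.2, Cplx1 at 207 ± 31.7 and Sv2a at 100.4 ± 8.45. Stx1a stood at 36.3 ± 6.25 FPKM and Doc2a at 5.79 ± 1.31 FPKM. The ranges of the Con. libraries overlapped between Syt1 and Vamp2, Vamp2 and Cplx2, and Cplx2 and Cplx1, while Snap25, Sv2a, Stx1a and Doc2a each stood apart from their neighbours in this order. In PTZ and Q808, Snap25 was again first, and Sv2a, Stx1a and Doc2a were again last in that order, whereas the order of the 4 genes between them differed.

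**Figure D1:**
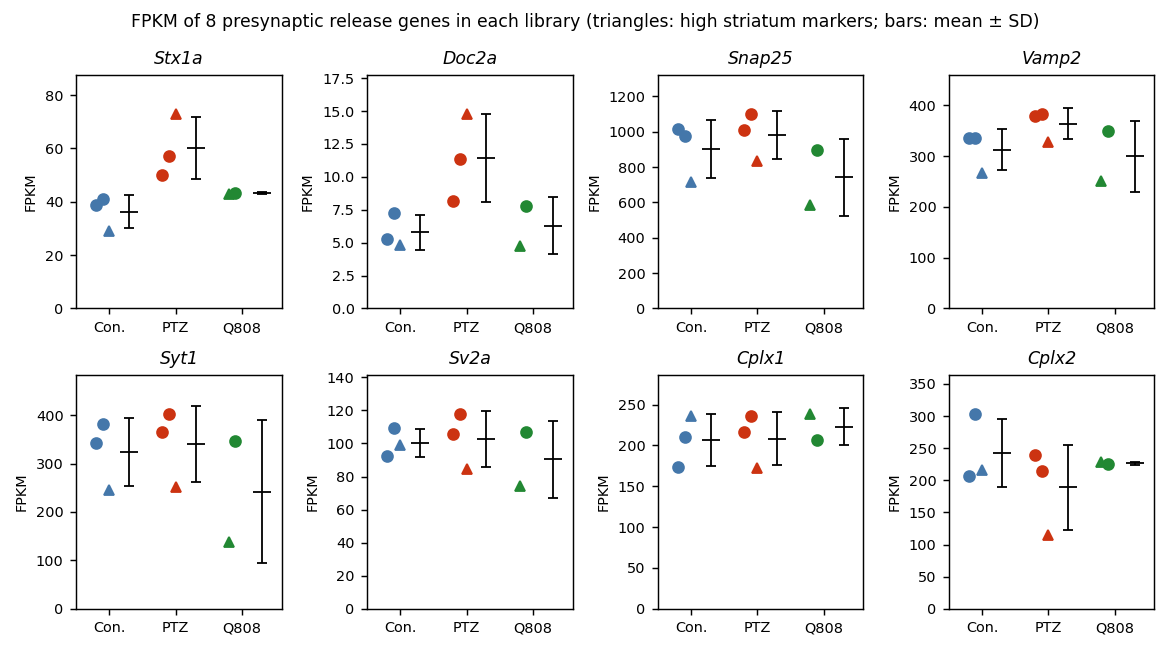
FPKM (y axes, linear from 0) of the 8 genes in each library of the Con., PTZ and Q808 groups (x axes). Points are libraries, triangles the 3 libraries with high striatum markers, and the bars show the mean ± SD over 3, 3 and 2 libraries. Stx1a and Doc2a have all 3 PTZ libraries above all Con. and Q808 libraries, and Q808-1 lies lowest for Snap25, Vamp2, Syt1, Sv2a and Doc2a.

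Stx1a (GeneID 116470) encodes syntaxin 1A, a plasma membrane SNARE. Its level was 38.6, 41.0 and 29.2 FPKM in the Con. libraries, 50.2, 57.3 and 73.1 FPKM in the PTZ libraries, and 43.1 and 43.4 FPKM in the Q808 libraries. All PTZ libraries lay above all others, and the Q808 libraries lay between the groups. PTZ was 1.65-fold Con. (log2 fold change 0.73, SE 0.19, 95% interval 0.27 to 1.18, adjusted p = 0.999 with limma over all tested genes). This passed the limits used for a call, an unadjusted limma p under 0.05 and a change over 1.5-fold. After adjustment no gene of the set passed: the adjusted p with limma was 0.999 for all 8 genes in PTZ against Con., 0.952 to 0.959 in Q808 against PTZ and 0.901 to 0.963 in Q808 against Con. In Q808 the level was lower than in PTZ by a log2 fold change of -0.46 (95% interval -0.95 to 0.03), which was not called although the libraries did not overlap. Against Con. the log2 fold change of Q808 was 0.27 (95% interval -0.20 to 0.74). Within the libraries low and high in striatum markers Q808 was 0.811 and 0.590 of PTZ, and 1.09-fold and 1.47-fold Con.

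The direction of Stx1a was the same in both sets of libraries. PTZ exceeded Con. 1.35-fold among the libraries low in striatum markers and 2.50-fold between PTZ-3 and Con.-3. Without the 3 libraries high in striatum markers the log2 fold change was 0.43 (adjusted p = 0.141 with limma), under the 1.5-fold limit, so the call was lost. It was also lost without Con.-3 (0.58) or without PTZ-3 (0.58). Stx1a is among the genes that the study itself selected as changed between PTZ and Con. from these same libraries, so its call is not independent evidence.

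Among the members with an entry in the RefSeq promoter table (GRCr8), 6 of 8, Stx1a had the most GC boxes, GGGCGG on either strand, in the 250 bases before its start: 4, with a GC content of 68.4%, against a median of 51.2% over 33469 promoters. A GC box was present in 30.47% of these promoters, so a match is a description of the letters and not of a bound site. The sequence is printed because Stx1a carried one of the calls, and that of Syt1, which varied widely between libraries and not between Con. and PTZ, is set beside it with its 3 GC boxes and a GC content of 66.0%. Both lie on the minus strand, Stx1a at chr12:27306472-27306721 and Syt1 at chr7:46244214-46244463, and are written 5′ to 3′ with the GC boxes in capitals.
Stx1a: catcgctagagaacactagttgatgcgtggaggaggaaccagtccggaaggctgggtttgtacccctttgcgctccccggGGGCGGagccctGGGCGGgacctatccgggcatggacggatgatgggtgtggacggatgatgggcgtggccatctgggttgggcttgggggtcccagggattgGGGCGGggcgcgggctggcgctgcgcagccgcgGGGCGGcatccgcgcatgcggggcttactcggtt
Syt1: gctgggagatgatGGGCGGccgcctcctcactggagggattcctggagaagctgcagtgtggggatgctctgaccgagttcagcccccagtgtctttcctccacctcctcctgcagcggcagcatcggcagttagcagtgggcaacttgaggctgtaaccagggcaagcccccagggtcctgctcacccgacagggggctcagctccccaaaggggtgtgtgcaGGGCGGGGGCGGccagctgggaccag
Neither window held the full cAMP response element TGACGTCA, present in 1.587% of promoters, its core TGACG, present in 18.22%, or the TATA box TATAAA, present in 12.93%. Stx1a held 1 CCAAT, as 34.02% of promoters did at least once. Vamp2 had 3 GC boxes, Cplx1 had 2, Cplx2 had 1 and Sv2a had 0, and TGACG occurred once each in Vamp2 and Cplx1. Both strands were searched for every motif, and the cAMP response element contains TGACG.

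Snap25 (GeneID 25012) encodes the other plasma membrane SNARE of the complex. It was measured at 1015, 976 and 717 FPKM in Con., at 1011, 1103 and 833 FPKM in PTZ and at 586 and 896 FPKM in Q808. The groups overlapped in every comparison, and the lowest library of each group was the one high in striatum markers. The log2 fold change was 0.13 for PTZ against Con. (95% interval -0.36 to 0.61) and -0.43 for Q808 against PTZ (95% interval -1.16 to 0.30). Within the libraries low and high in striatum markers PTZ was 1.06-fold and 1.16-fold Con., and Q808 was 0.848 and 0.704 of PTZ.

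Vamp2 (GeneID 24803), the vesicle SNARE gene, was the least variable of the SNARE genes, with its highest library at 1.53 times its lowest. Its level was 337, 336 and 267 FPKM in Con., 379, 384 and 328 FPKM in PTZ and 251 and 349 FPKM in Q808. Again the library high in striatum markers was the lowest of its group. Within the libraries low in striatum markers both PTZ libraries exceeded both Con. libraries, 1.13-fold on average, and PTZ-3 exceeded Con.-3 1.23-fold. Over all libraries the log2 fold change was 0.22 (95% interval -0.14 to 0.58), and for Q808 against PTZ it was -0.30 (95% interval -0.85 to 0.26), with ratios of 0.915 in the low set and 0.763 in the high set.

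Syt1 (GeneID 25716), the gene of the fast calcium sensor, had levels of 343, 382 and 245 FPKM in Con., 365, 403 and 252 FPKM in PTZ and 137 and 347 FPKM in Q808. Its spread within each group was larger than the difference between Con. and PTZ, whose log2 fold change was 0.07 (95% interval -0.50 to 0.64). The 3 libraries high in striatum markers averaged 211 FPKM and the other 5 averaged 368 FPKM, with no overlap, the highest of the first set being 252 and the lowest of the second 343. For Q808 against PTZ the log2 fold change was -0.61 (95% interval -1.65 to 0.43), and it rested on Q808-1. Within the low and high sets Q808 was 0.904 and 0.544 of PTZ, and PTZ was 1.06-fold and 1.03-fold Con. With Q808-1 as the only Q808 library the log2 fold change was -1.28 and called, as were 8.34% of all genes in that fit, and with Q808-2 as the only one it was 0.06.

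Doc2a (GeneID 65031), a calcium sensor gene of much lower level, showed the largest fold change of the 8 genes both between PTZ and Con. and between Q808 and PTZ. It was measured at 5.27, 7.29 and 4.82 FPKM in Con., at 8.15, 11.4 and 14.8 FPKM in PTZ and at 4.77 and 7.82 FPKM in Q808. All PTZ libraries lay above all Con. and all Q808 libraries, while Con. and Q808 overlapped. PTZ was 1.94-fold Con. (log2 fold change 0.95, SE 0.27, 95% interval 0.32 to 1.59, adjusted p = 0.999 with limma). Q808 was 0.553 of PTZ (log2 fold change -0.85, SE 0.34, 95% interval -1.68 to -0.03, adjusted p = 0.952 with limma). Both passed the limits for a call, and Q808 against Con. gave a log2 fold change of 0.10 (95% interval -0.66 to 0.86).

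For Doc2a the comparison of PTZ with Con. remained called without the 3 libraries high in striatum markers, with a log2 fold change of 0.63 (adjusted p = 0.233 with limma), a ratio of 1.55 that lies just past the 1.5-fold limit. Between PTZ-3 and Con.-3 the ratio was 3.03. The comparison of Q808 with PTZ was less firm. Among the libraries low in striatum markers Q808-2 was 0.813 of the PTZ mean (log2 -0.30), which was not called, and between Q808-1 and PTZ-3 the ratio was 0.327. That call was also lost without PTZ-2 (-0.84), without PTZ-3 (-0.65) or without Q808-1 (-0.50), and with all genes above 0 or limma without trend, at the same -0.85. Q808 was 1.26-fold Con. in the low set and 0.991 of Con. in the high set. Doc2a is among the genes that the study selected as changed in both comparisons from these same libraries. By qRT-PCR the study also reported Doc2a as significantly higher in PTZ than in Con. and as decreased after Q808. Whether the sequenced rats were among those measured is not stated.

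Doc2a overlaps the gene Ino80e in the RefSeq gene table, and the counting is not stated to use strand, so reads in the overlap cannot be assigned with certainty. Ino80e, a chromatin remodelling subunit gene, had a mean of 21.5 FPKM and a log2 fold change of -0.02 for PTZ against Con. and of 0.03 for Q808 against PTZ. Of the 27 genes that overlap a member or lie next to one in that table, 10 were tested, and 0 had an unadjusted limma p under 0.05 in any of the 3 comparisons.

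Sv2a (GeneID 117559), which encodes the levetiracetam target, was measured at 92.7, 109 and 99.2 FPKM in Con., at 106, 118 and 84.8 FPKM in PTZ and at 74.0 and 107 FPKM in Q808. The groups overlapped throughout. The log2 fold change was 0.02 for PTZ against Con. (95% interval -0.34 to 0.39), which leaves room for changes up to 1.31-fold upward or 1.27-fold downward, and -0.20 for Q808 against PTZ (95% interval -0.77 to 0.38). The direction of PTZ against Con. differed between the sets, with a ratio of 1.11 among the libraries low in striatum markers and 0.855 between PTZ-3 and Con.-3. Q808 was 0.956 and 0.874 of PTZ in the low and high sets.

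The complexin genes were called in 0 of the 3 comparisons with limma. Cplx1 (GeneID 64832), the complexin 1 gene, lay at 173, 211 and 236 FPKM in Con., at 217, 236 and 173 FPKM in PTZ and at 239 and 207 FPKM in Q808. Cplx2 (GeneID 116657), the complexin 2 gene, lay at 207, 303 and 216 FPKM in Con., at 239, 215 and 114 FPKM in PTZ and at 228 and 225 FPKM in Q808. PTZ-3 was the lowest library for both. The log2 fold changes of PTZ against Con. were 0.01 for Cplx1 (95% interval -0.41 to 0.43) and -0.40 for Cplx2 (95% interval -1.12 to 0.31). The value for Cplx2 came mostly from PTZ-3, which was 0.529 of Con.-3, whereas the ratio among the libraries low in striatum markers was 0.903. For Cplx1 both PTZ libraries low in striatum markers lay above both such Con. libraries, 1.18-fold on average, while PTZ-3 was 0.731 of Con.-3. Q808 against PTZ also turned between the low and high sets, from 0.914 to 1.38 for Cplx1 and from 0.993 to 2.00 for Cplx2.

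**Figure D2:**
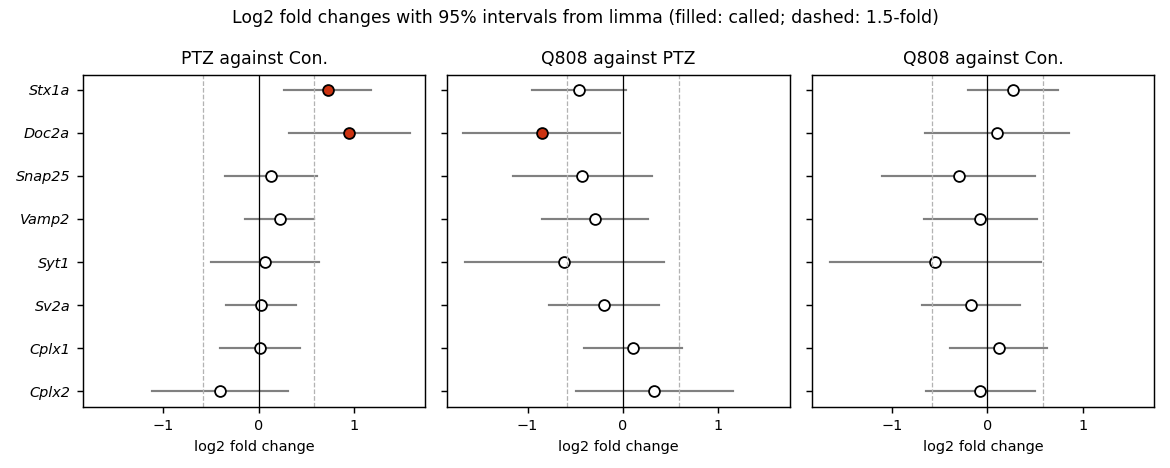
Log2 fold change (x axes) of each gene (y axis) in 3 comparisons, as limma estimates with 95% intervals; filled circles were called and dashed lines mark 1.5-fold. Stx1a and Doc2a were called higher in PTZ against Con., Doc2a was called lower in Q808 against PTZ, and the 8 intervals of Q808 against Con. include 0.

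As a list, the 8 genes gave 2 calls in PTZ against Con., both higher, against 2.53% of all tested genes called and 1.69% called higher. These were Stx1a and Doc2a, which the study had already reported as changed from these libraries. The members were chosen with earlier results known, so this count is not independent of the choice. The same 2 genes had an unadjusted limma p under 0.05, against 3.78% of all genes, and the same 2 had groups that did not overlap, against 9.15%. The log2 fold change was positive for 7 of 8, with a median of 0.10 beside -0.04 over all genes. Q808 against PTZ gave 1 call, Doc2a, against 1.92% of all genes called, 0.564% called lower and 2.19% with an unadjusted limma p under 0.05. Groups did not overlap for 2 members, both lower, against 15.6% of all genes, and the fold change was negative for 6 of 8 with a median of -0.36 beside 0.10. Q808 against Con. gave 0 calls with limma and 0 members at an unadjusted p under 0.05, against 3.46% and 4.28% of all genes. Only Stx1a had groups that did not overlap, against 20% of all genes, and the median was -0.07 beside 0.04. Within the libraries low in striatum markers 7 of 8 differences were positive in PTZ against Con., against 5547 of 15593 over all genes. In Q808 against PTZ 8 of 8 were negative there, against 4742 of 15593. In the high set 5 of 8 were positive and 6 of 8 negative, against 9307 and 8814 of 15593. In the low set 7 neuron markers summed to 830 and 875 FPKM in Con., 1009 and 1243 in PTZ and 798 in Q808. Their part in these counts was not tested. The first pair of comparisons shares the PTZ libraries, so a high PTZ library moves both in opposite directions.

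Relative to neuron markers, the separation of PTZ from Con. was no longer complete for Stx1a and Doc2a. The sum of 7 neuron markers was 587 to 875 FPKM in Con., 552 to 1243 in PTZ and 480 to 798 in Q808, none at 0. Nefl, a neurofilament gene in that sum, ranged from 136 to 610 FPKM, and in PTZ-3 it stood at 140 FPKM beside 234 FPKM for Tubb3, a neuronal tubulin gene. Stx1a amounted to 4.65%, 4.69% and 4.97% of that sum in Con., to 4.97%, 4.61% and 13.2% in PTZ and to 8.98% and 5.44% in Q808. Doc2a amounted to 0.635%, 0.833% and 0.820% in Con., to 0.808%, 0.916% and 2.68% in PTZ and to 0.994% and 0.979% in Q808. For both genes the PTZ and Con. ranges then overlapped (two-sided exact permutation p = 0.6 for Stx1a and 0.3 for Doc2a, smallest possible p 0.1). Among the PTZ libraries only PTZ-3 stood high. Both Q808 libraries lay above all Con. libraries for both genes (exact permutation p = 0.1 each). Cplx2 was 25.0%, 34.7% and 36.8% of the neuron marker sum in Con., 23.7%, 17.3% and 20.7% in PTZ and 47.5% and 28.2% in Q808. For Cplx2, PTZ thus lay below Con. and Q808 above PTZ (exact permutation p = 0.1 each, unadjusted), with log2 differences of -0.64 and 0.84. In Q808 against Con. those of Stx1a and Doc2a were 0.55 and 0.38. Scaling to this sum also moved the median log2 fold change of all genes, to -0.26 in PTZ against Con. It became 0.59 in Q808 against PTZ and 0.32 in Q808 against Con., and the differences are to be read beside these medians. The share of all genes without overlap on this scale was not counted. For the remaining members the groups overlapped in every comparison. With all genes scaled to this sum, an alternative added after the data were seen, 0 members were called with limma in any comparison. The part of neuron content in the results was not tested.

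**Figure D3:**
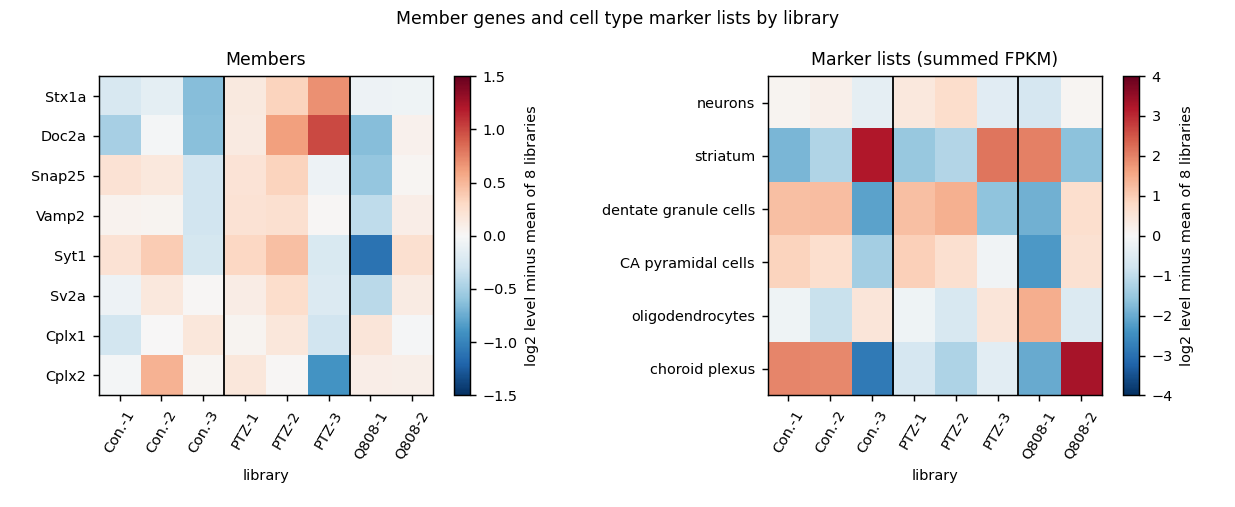
Log2 level minus the mean of 8 libraries (color) for the 8 genes (left) and for the summed FPKM of 6 marker lists (right), by library (x axes); black lines separate the groups and the color scales differ. Con.-3, PTZ-3 and Q808-1 are high in striatum and low in dentate granule cell markers, and Snap25, Vamp2 and Syt1 are lowest in these libraries within each group.

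Across the 8 libraries the members fell into patterns that are described here without a test, since the libraries share tissue composition. Of 28 pairs of members, 7 had a Pearson r over 0.7 on the log2 scale. They joined Stx1a with Doc2a (0.90) and Snap25, Vamp2, Syt1 and Sv2a with each other, from 0.73 for Vamp2 and Sv2a to 0.96 for Snap25 and Syt1. Over all 8 libraries neither complexin gene was in such a pair. Within the 5 libraries low in striatum markers the value for Stx1a and Doc2a was 0.92, and that for Snap25 and Syt1 was 0.65. There Cplx1 reached 0.97 with Sv2a, 0.96 with Doc2a, 0.86 with Stx1a, 0.81 with Syt1 and 0.74 with Vamp2. Snap25, Vamp2 and Syt1 were 0.712, 0.790 and 0.575 times as high in the libraries high in striatum markers as in the others, whereas Stx1a and Doc2a had ratios of 1.05 and 1.02.

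The genes most alike in pattern over the 8 libraries, by Pearson r of log2 levels, were Fabp5 (0.96), Polr2m (0.96) and Cux2 (0.95) for Stx1a, and Magi3 (0.94), Fxyd6 (0.93) and Dcun1d5 (0.93) for Doc2a. Cux2, a transcription factor gene used here as a marker of upper cortical layers, was measured at 3.10, 4.04 and 2.20 FPKM in Con., at 5.87, 8.34 and 9.54 FPKM in PTZ and at 5.13 and 6.03 FPKM in Q808, and was itself called higher in PTZ. The 4 cortex markers, Cux2 among them, together summed to 16.4 to 23.0 FPKM in Con., 27.1 to 36.0 in PTZ and 25.2 to 26.4 in Q808, without overlap between Con. and PTZ, and their part in the result of Stx1a was not tested. For Syt1 the most alike were Sv2b, Rab3a and Prune2, at 0.99 or above, and for Vamp2 they were Cyc1, Syn1 and Pnoc, at 0.98 or above. Sv2b, Rab3a and Syn1 encode synaptic vesicle proteins. Ndst3 led for Snap25 (0.99), Mapk9 for Sv2a (0.99), Spock1 for Cplx1 (0.99) and Cacng2 for Cplx2 (0.98).

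Paralogs of the members gave a reading within each library that does not depend on scaling between libraries. Doc2b, the other neuronal Doc2 gene, was measured at 23.2, 20.1 and 12.7 FPKM in Con., at 16.1, 12.6 and 7.93 FPKM in PTZ and at 7.02 and 18.7 FPKM in Q808. PTZ lay below Con. within both sets of libraries, the opposite direction to Doc2a, although the pooled ranges overlapped. Its log2 fold change in PTZ against Con. was -0.62, which was not called (adjusted p = 0.999 with limma). It was called lower when the fit was blocked by replicate number (adjusted p = 0.710 with limma) or held the division by striatum markers as a covariate (adjusted p = 0.424), both of which compare Con.-3 with PTZ-3. It was also called lower without the libraries high in striatum markers, with a log2 fold change of -0.60 (adjusted p = 0.158 with limma). The ratio of Doc2a to Doc2b was 0.227, 0.363 and 0.380 in Con., 0.506, 0.902 and 1.87 in PTZ and 0.679 and 0.418 in Q808. All PTZ ratios lay above all Con. ratios, with a log2 difference of 1.59 (two-sided exact permutation p = 0.1, the smallest that 3 against 3 can give, adjusted p = 0.75 over 15 ratio tests). Both Q808 ratios also lay above all Con. ratios, with a log2 difference of 0.76, and they overlapped with PTZ.

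In the ratios of Sv2a to Sv2b and Syt1 to Syt2 the log2 differences of PTZ against Con. were 0.01 and 0.27, and for Cplx1 to Cplx2 it was 0.42, all with overlapping groups. Syt2, a fast synaptotagmin best known from hindbrain and spinal cord, ranged from 1.30 to 14.8 FPKM with its highest values in Con.-3 and Q808-1.

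Beyond the members, 64 other genes of release were followed in 5 role lists, and all 64 were tested. In PTZ against Con., 0 were called higher and 1 was called lower, against 2.53% of all tested genes called. The median log2 fold change was -0.03, with 28 positive values. The sets of libraries went opposite ways: among those low in striatum markers 44 of 64 differences were positive, with a median of 0.09 beside -0.11 over all genes, and between PTZ-3 and Con.-3 it was 25 of 64, with a median of -0.13 beside 0.11. The called gene was Rab3d, a Rab3 paralog of secretory vesicles, at 9.77, 10.5 and 8.48 FPKM in Con. and 5.41, 4.23 and 7.43 FPKM in PTZ (log2 fold change -0.77, adjusted p = 0.999 with limma). It was lower in both sets of libraries, to 0.478 among those low in striatum markers and to 0.878 between PTZ-3 and Con.-3, and the call was lost without PTZ-2 (-0.58). The study also selected this gene from these libraries. In the fit blocked by replicate number 3 genes were called lower, Rab3d, Doc2b and Syt9, the last a synaptotagmin gene at 1.62, 2.29 and 10.4 FPKM in Con. and 1.06, 1.74 and 4.06 FPKM in PTZ (adjusted p = 0.747 with limma). Without the libraries high in striatum markers 3 genes were called, Rab3d and Doc2b lower and Cplx3 higher. Cplx3, the gene of complexin 3, was measured at 0.456, 1.22 and 5.91 FPKM in Con. and 2.55, 3.95 and 4.34 FPKM in PTZ, and its log2 fold change of 1.93 in that fit (adjusted p = 0.144 with limma) compares with 1.14 over all libraries. These genes were named after their values were seen. Of the list medians, those of the SNARE assembly genes (13 genes, -0.04), the calcium sensor genes (11 genes, -0.07) and the active zone and Rab3 genes (17 genes, -0.06) were below 0, and those of the synaptic vesicle genes (16 genes, 0.02) and the vesicle recycling genes (7 genes, 0.07) were above it. The first 3 medians were 0.10, 0.03 and 0.11 in the low set and -0.16, -0.44 and -0.23 in the high set.

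For Q808 against PTZ, 0 of the 64 were called higher and 1 was called lower, against 1.92% of all tested genes called. This was Syt4, a synaptotagmin gene that is induced by activity. It was measured at 84.4, 144 and 76.5 FPKM in PTZ and at 38.1 and 70.7 FPKM in Q808 (log2 fold change -0.91, adjusted p = 0.952 with limma), and the call was lost without PTZ-1, PTZ-2 or Q808-1 (-1.01, -0.63 and -0.46) and without the libraries high in striatum markers (-0.64). It was also lost with all genes above 0, a mean FPKM of at least 1, limma without trend, quantile normalization, median ratio scaling or neuron marker scaling (-0.39). Values were negative for 49 of 64 genes, with a median of -0.25 beside 0.10 over all genes, and for 15 of 16 synaptic vesicle genes, with a median of -0.30. In the same comparison the 7 neuron markers had a median of -0.42 and the 8 oligodendrocyte markers one of 0.45, and Q808-1 had the lowest neuron sum, 480 FPKM, and the highest oligodendrocyte sum, 13758 FPKM. Their part in the result was not tested. Q808-1 was the lowest of the 8 libraries for 30 of the 64 genes, or 46.9%, and for 18.5% of all genes. The count of calls followed this library: with Q808-1 as the only Q808 library 20 of the 64 were called, 15 of them lower, against 8.34% of all genes called and 4.29% called lower in that fit, and with Q808-2 as the only one 0 were called. Among the libraries low in striatum markers 46 of 64 values were negative, with a median of -0.08 beside 0.16 over all genes. Between Q808-1 and PTZ-3 it was 45 of 64, with a median of -0.27 beside -0.06.

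In Q808 against Con., 0 of the 64 were called and 0 had an unadjusted limma p under 0.05, against 3.46% and 4.28% of all tested genes. Of the 64 values 48 were negative, with a median of -0.28 beside 0.04. With Q808-1 as the only Q808 library 22 were called, 19 of them lower, against 11.5% of all genes called and 4.48% called lower in that fit. Among the libraries low in striatum markers 35 of 64 values were negative with a median of -0.02, and between Q808-1 and Con.-3 it was 46 of 64 with a median of -0.49.

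**Figure D4:**
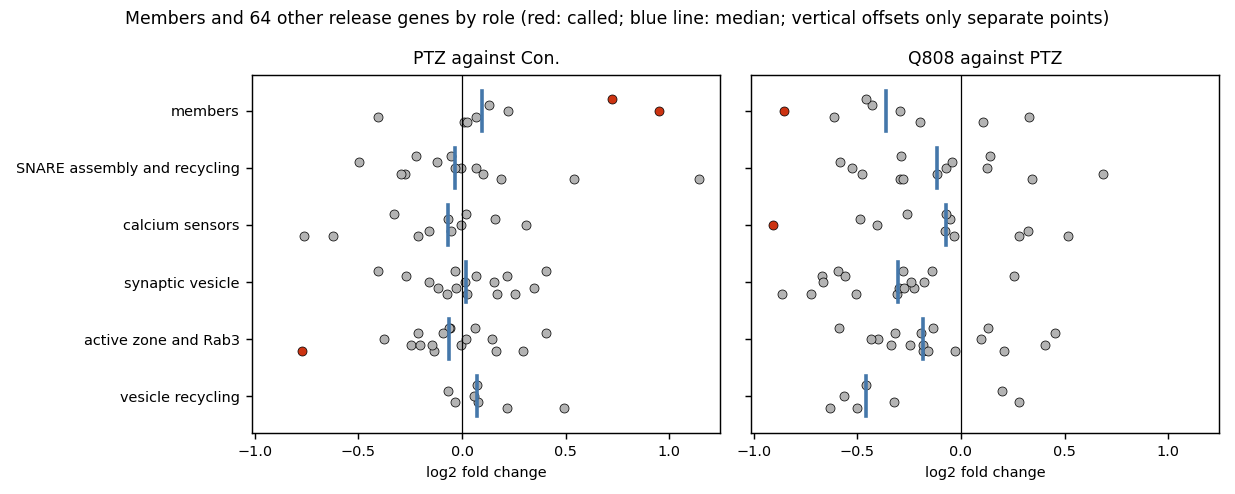
Log2 fold changes (x axes) of the 8 members and of the 64 other release genes by role list (y axis) in PTZ against Con. (left) and Q808 against PTZ (right); each point is a gene, red points were called, blue lines are list medians and vertical offsets only separate points. In the right panel the medians of all 6 rows lie below 0, and 15 of 16 synaptic vesicle genes are negative.

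The deposited KEGG annotation assigned 62 genes to the synaptic vesicle cycle, 56 of them not members, of which 51 were tested. In PTZ against Con. 0 of the 51 were called higher and 1 lower, against 2.53% of all tested genes called. This was Slc17a8, the gene of the vesicular glutamate transporter VGLUT3, which the study had also reported as changed in PTZ from these libraries. It was called at 2.55, 2.57 and 3.95 FPKM in Con. and 1.74, 1.82 and 1.43 FPKM in PTZ (log2 fold change -0.80, adjusted p = 0.999 with limma). That call was lost with a pseudocount of 1 (-0.58), without the libraries high in striatum markers (-0.50), without Con.-3 (-0.60) or without PTZ-1 (-0.84). Between PTZ and Q808, 1 of the 51 was called higher and 0 lower, against 1.92% of all tested genes called. This was Tcirg1, a subunit gene of the vacuolar proton pump, at 3.29, 3.37 and 3.88 FPKM in PTZ and 6.32 and 5.02 FPKM in Q808 (log2 fold change 0.67, adjusted p = 0.952 with limma). In Q808 against Con. 2 of the 51 were called, both higher, against 3.46% of all tested genes called. Tcirg1 was 1 of them, at 3.19, 2.98 and 3.61 FPKM in Con. (log2 fold change 0.78, adjusted p = 0.901 with limma). The other call of Q808 against Con. was Slc18a1, the gene of the vesicular monoamine transporter VMAT1, at 0.690, 0.719 and 0.791 FPKM in Con. and 1.80 and 1.17 FPKM in Q808 (log2 fold change 0.90, adjusted p = 0.901 with limma). Tcirg1 was higher in Q808 within both sets of libraries, 1.61-fold and 1.73-fold over Con., and its calls were lost with Q808-2 as the only Q808 library (0.51 against PTZ and 0.61 against Con.). The call against PTZ was also lost without PTZ-1 (0.63), without PTZ-2 (0.64) or without the libraries high in striatum markers (0.58), and the call against Con. without Con.-2 (0.72). With a pseudocount of 1, quantile normalization or median ratio scaling the call against PTZ was lost too (0.56, 0.53 and 0.58). The call of Slc18a1 was lost then too (0.61), and also without the libraries high in striatum markers (0.66), without Con.-1 (0.86) or without Con.-2 (0.89). It was also lost with a pseudocount of 1 (0.51), quantile normalization (0.64), the replicate block (0.95) or 1 fit of all 3 groups (0.90). Scaled to the neuron marker sum, the calls of Slc17a8, Tcirg1 and Slc18a1 were lost as well. The sum of 6 microglia markers was 121, 103 and 120 FPKM in Con., 147, 106 and 169 in PTZ and 253 and 135 in Q808. Both Q808 sums lay above all Con. sums, and the Q808 and PTZ sums overlapped. The part of these markers in the result of Tcirg1 was not tested.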

How the data were processed

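RNA sequencing of rat hippocampus gave 8 libraries, grouped by their labels. After trimming with Trimmomatic, the authors calculated FPKM per gene with Cufflinks and deposited these values. The submitters' processing notes also name HISAT2, Bowtie2, StringTie, SAMtools, HTSeq and DESeq without role or version, and the genome build is not given in the sources used here. Depth in reads is not in FPKM, so precision comes from the spread between libraries alone. Symbols came from the RefSeq table of GRCr8 for 20633 genes by GeneID, and 1968 kept their GeneID.

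Genes averaging 0.1 FPKM or more over the libraries, 15593 in all, were fitted as log2(FPKM + 0.1) by limma 3.58.1 in R 4.3.3 (empirical Bayes with a trend), each comparison on its own groups. Calls needed an unadjusted p under 0.05 and a change over 1.5-fold, after the study's thresholds read as fold limits, and adjusted p-values are Benjamini-Hochberg over all tested genes. Fold changes are on the log2(FPKM + 0.1) scale. Ratios within libraries were compared by exact permutation in Python 3.11.15 (numpy 2.4.6, pandas 2.3.3, scipy 1.17.1, matplotlib 3.10.9), and some of these ratios are not reported here. The procedure was tested on simulated data. Each rat gave 1 library, so the spread behind the p-values is that between rats, differences in tissue composition included. In fits that keep 1 Q808 library, no spread between Q808 rats enters. Identical values occurred in 0 pairs of libraries (Spearman rho 0.966 to 0.986).

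The members, lists, tests and library sets were chosen with earlier results of these data known. Named beside the members were called genes of the release and KEGG synaptic vesicle cycle lists, the paralogs, and the 3 genes most correlated with each member. The libraries high in striatum markers are those above the largest gap in the mean log2 level of 8 genes. Replicate numbers in the titles mark different rats, and the deviations of same-numbered Con. and PTZ libraries correlated at 0.31, 0.39 and 0.47 across genes. The alternatives were other pseudocounts, filters, scalings and fits, the replicate block, and left-out libraries. Protein sequences were not used here.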

Additional observations from a re-analysis of the deposited data

How the results depend on the processing

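For Stx1a and Doc2a the direction of PTZ against Con. was the same under 18 of 18 alternatives each, with log2 fold changes of 0.43 to 0.85 and 0.63 to 1.17, and for Doc2a in Q808 against PTZ under 17 of 17 alternatives, from -1.20 to -0.30. The adjusted p of these results lay between 0.141 and 1. For both genes all PTZ libraries lay above all Con. libraries, and for Doc2a above all Q808 libraries. Only the 3 scalings between libraries could therefore have turned a direction. The other alternatives could not, so the counts of 18 and 17 do not measure how firm the directions are. Unless a value shows it, the cause of a change was not tested. Of the 3 scalings tried, only the neuron marker sum moved the median log2 fold change of all genes by over 0.1, from -0.04 to -0.26 in PTZ against Con., from 0.10 to 0.59 for Q808 against PTZ and from 0.04 to 0.32 for Q808 against Con., the order kept below.

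Scaled to the summed neuron markers, an alternative chosen after the data were seen, members called were 0 in each comparison, and other release genes called were 0 in the first and second comparison. In PTZ against Con. the log2 fold changes turned to -0.10 for Snap25, -0.013 for Vamp2, -0.17 for Syt1, -0.21 for Sv2a, -0.22 for Cplx1 and -0.12 for Tcirg1. In Q808 against PTZ they turned to 0.057 for Stx1a, 0.087 for Snap25, 0.22 for Vamp2 and 0.32 for Sv2a, and in Q808 against Con. to 0.21 for Vamp2, 0.11 for Sv2a, 0.21 for Cplx2 and 0.040 for Slc17a8.

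Without the libraries with high striatum markers, where Q808 keeps 1 library that is assumed to vary like the others, 1 member was called in PTZ against Con. and 0 when Q808 was set against PTZ. Other release genes called were 3, 2 and 1 in the 3 comparisons. The log2 fold change in Q808 against PTZ turned to -0.13 for Cplx1 and -0.010 for Cplx2, and in Q808 against Con. to 0.053 for Vamp2 and 0.083 for Sv2a. The log2 ratio of Syt1 to Syt2 turned to -0.79 in PTZ against Con. It turned to 0.22 in Q808 against PTZ, where that of Sv2a to Sv2b was -0.042. With high or low striatum markers as a covariate, 3 other release genes were called in PTZ against Con. and 2 for Q808 against Con.

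With the replicate block, members called stayed at 2, 1 and 0, and other release genes called were 3, 2 and 4 in the 3 comparisons. Same-numbered libraries of Q808 against PTZ correlated at -0.44 and 0.42 and those of Q808 against Con. at -0.46 and 0.66, so there the numbers do not pair libraries. In PTZ against Con., PTZ-1 correlated more with Con.-2 (0.45) than with Con.-1 (0.31). Con.-3 and PTZ-3 (0.47) are both high in striatum markers, and the labels give no shared batch for a number. The block turned Cplx1 to -0.026 and Cplx2 to -0.00011 in Q808 against PTZ and Doc2a in Q808 against Con. to -0.020.

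With all genes above 0, or with limma without trend, members called and other release genes called in Q808 against PTZ were 0 each, and other release genes called there were also 0 with a mean FPKM of at least 1, quantile normalization or median ratio scaling. Quantile normalization turned Sv2a to -0.011 and Cplx1 to -0.067 in PTZ against Con.

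Leaving out 1 library at a time, members called ranged from 1 to 2, from 0 to 3 and from 0 to 1 in the 3 comparisons, and other release genes called from 0 to 4, from 0 to 20 and from 0 to 22, with the highest counts without Con.-3, without Q808-2 and without Q808-2. In PTZ against Con. the log2 fold changes ranged from -0.029 to 0.24 for Snap25, from -0.12 to 0.27 for Syt1, from -0.082 to 0.16 for Sv2a, from -0.11 to 0.14 for Cplx1 and from -0.023 to 0.66 for Slc18a1, and the log2 ratios from -0.12 to 0.23 for Sv2a to Sv2b and from -0.85 to 1.15 for Syt1 to Syt2. In Q808 against PTZ the fold changes ranged from -1.28 to 0.057 for Syt1, from -0.46 to 0.067 for Sv2a, from -0.026 to 0.21 for Cplx1, from -0.00011 to 0.53 for Cplx2 and from -0.24 to 0.66 for Rab3d, and the ratios from -0.16 to 1.11 for Sv2a to Sv2b and from -2.55 to 0.28 for Syt1 to Syt2. In Q808 against Con. they ranged from -0.61 to 0.0059 for Snap25, from -0.31 to 0.16 for Vamp2, from -1.21 to 0.12 for Syt1, from -0.44 to 0.091 for Sv2a, from -0.25 to 0.45 for Doc2a, from -0.0063 to 0.22 for Cplx1 and from -0.18 to 0.098 for Cplx2, and the ratios from -0.15 to 1.12 for Sv2a to Sv2b and from -2.28 to 0.55 for Syt1 to Syt2.

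Over all genes, 395 were called in PTZ against Con., 219 with a pseudocount of 1, 616 with the block, 669 with the covariate, 192 with neuron scaling and 1532 without the libraries high in striatum markers. In Q808 against PTZ 300 were called, 193 with a mean FPKM of at least 1, 1894 with the block, 590 with the covariate and 1625 without those libraries, and in Q808 against Con. 540, 340 with a pseudocount of 1, 1076 with the block and 1019 with the covariate. The split in Q808 against PTZ of 212 higher and 88 lower became 132 and 140 with quantile normalization. Without 1 library the counts ranged from 249 to 1135, from 132 to 1569 and from 279 to 1799, and they moved over 1.5 times without Con.-3, PTZ-2 or PTZ-3 in the first, without any PTZ library or Q808-2 in the second, and without Con.-2, Q808-1 or Q808-2 in the third comparison.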
